A study of Mus musculus with 8 samples.

Results

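Microglia, the resident macrophages of the brain and spinal cord, are described here through 9 of their marker genes: Cx3cr1, P2ry12, Tmem119, Csf1r, Trem2, Tyrobp, Cd68, Ctss and Aif1. The genes were chosen by name from a list of microglia markers, without reference to a threshold in the data. The choice was made with earlier results of these data known, so counts of the 9 beside all genes are descriptive. All 9 were among the 23278 genes of the deposited tables, and all 9 passed the filter on low values that left 13948 genes to test. Mice of the FVB/N strain were used at postnatal day 1. RNA came from hematoxylin-stained sections of the lumbar cord, from which either ventral horn motor neurons or the white matter around them had been cut with a laser. Captures were therefore picked by position and morphology, and neither kind is a pure cell population. WT mice were compared with mice modelling spinal muscular atrophy (SMA), a disease caused by too little survival motor neuron (SMN) protein. The SMA mice had the genotype SMN2+/+;SMNΔ7+/+;Smn-/-, that is, no mouse Smn and both human transgenes. Each of the 4 groups (WT motor neurons, SMA motor neurons, WT white matter, SMA white matter) held 2 libraries, and how many animals went into a library was not given in the sources used here. Values are in RPKM, read counts scaled by both gene length and library depth, so levels can be compared between genes, and pairs of values are for replicates 1 and 2 in that order.

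Microglia enter the embryonic nervous system as yolk sac macrophages and depend for their survival on the receptor encoded by Csf1r, which binds the growth factors CSF1 and IL-34. Cx3cr1 encodes the receptor for fractalkine, a chemokine that neurons make, and P2ry12 encodes a purine receptor that steers microglial processes towards released ADP. Tmem119 encodes a transmembrane protein used to tell microglia from other macrophages. Trem2 encodes a lipid-sensing receptor that signals through the adaptor encoded by Tyrobp (DAP12). Cd68 encodes a glycoprotein of lysosomal membranes that is abundant in phagocytic cells, Ctss the lysosomal protease cathepsin S, and Aif1 the actin-bundling protein IBA1. In the spinal cord microglia clear dying cells and remove synapses during postnatal development.

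Expression of many of these genes in macrophages depends on PU.1, an ETS transcription factor that binds purine-rich DNA around the letters GAGGAA. The 250 bases before the gene start were in the RefSeq promoter table (build GRCm38.p6) for 6 of the 9 genes: Cx3cr1, Cd68, Aif1, Trem2, P2ry12 and Ctss. On either strand, GAGGAA was found in 4 of these 6, against 23.3% of 32851 promoters in the table. The stretches that hold it are shown because these 4 genes include the pair whose SMA difference in motor neuron captures lay farthest apart, Cd68 and Trem2. They are printed 5′ to 3′ on the strand of the gene, with the match in capitals (GAGGAA, or TTCCTC where it lies on the other strand).
Cd68, chr11:69666360-69666420, minus strand: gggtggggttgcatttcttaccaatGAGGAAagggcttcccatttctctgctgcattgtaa
Ctss, chr3:95526592-95526657, plus strand: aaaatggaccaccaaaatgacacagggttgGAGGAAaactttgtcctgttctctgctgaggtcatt
Trem2, chr17:48346331-48346396, plus strand: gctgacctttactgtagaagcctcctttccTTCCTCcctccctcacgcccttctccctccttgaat
Aif1, chr17:35176053-35176089, minus strand: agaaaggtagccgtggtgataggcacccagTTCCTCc
The match began 225 bases before the start in Cd68, 164 in Ctss, 40 in Trem2 and 7 in Aif1. The bases after the start were found in a same-strand transcript of the gene for 4 of the 6 promoters. For the others, strand and start rest on the RefSeq promoter table alone. The longer form GAGGAAGT (2.44% of promoters) and the composite ETS and IRF element (2.30%) were in 0 of the 6. The TATA letters TATAAA were in 1 of 6, Ctss, against 12.4% of promoters. A match describes the letters of the window and says nothing about binding.

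The libraries were deep. Their RPKM steps corresponded to denominators of 77.5 to 102.8 M reads, and 45.1 to 68.2 M reads could be traced to genes. In white matter the reads on genes differed by genotype, at 45.1 and 49.7 M in WT and 68.2 and 64.5 M in SMA. The denominators there were 86.9 and 96.7 M in WT and 96.8 and 102.8 M in SMA. Between 11539 and 12796 genes reached 1 RPKM per library. The targeted gene Smn1 was at 6.82 and 2.93 RPKM in WT motor neurons, at 5.30 and 14.3 RPKM in WT white matter, and listed at 0 in all 4 SMA libraries. Every group held 1 library (replicate 1) with Xist, a transcript of the inactive X chromosome, at 12.6 to 37.0 RPKM. The other library of the group (replicate 2) had no more than 0.0581 RPKM of Xist. Ddx3y, a gene of the Y chromosome, was listed at 0 in replicate 1 of every group and was at 0.628 to 6.37 RPKM in replicate 2. The reads behind the 9 genes ranged from 13 (Aif1 in WT motor neuron replicate 1) to 16689 (Csf1r in SMA white matter replicate 2). In WT motor neuron replicate 1, Cd68 rested on 21 reads.

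White matter captures held far more of every microglia gene than motor neuron captures did, in both genotypes. In WT the group mean in white matter was 5.23 to 17.0 times that in motor neurons, with a median over the 9 genes of 10.2 times. In SMA it was 3.79 to 14.0 times, with a median of 6.06 times. For all 9 genes the 4 white matter libraries lay above the 4 motor neuron libraries, which held for 20.7% of the 13948 tested genes. Fewer microglia in a capture and less microglial RNA per cell cannot be told apart in these bulk samples.

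**Figure D1:**
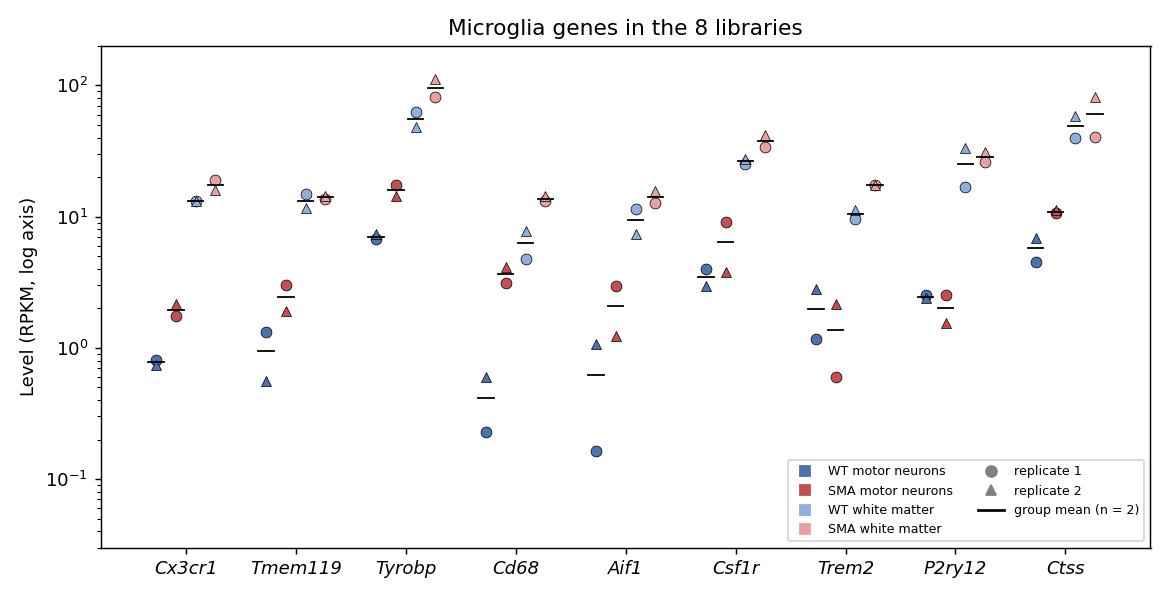
Level of the 9 microglia genes in each library (RPKM on a log axis), with circles for replicate 1, triangles for replicate 2 and a line at each group mean of 2 libraries. For each gene the 4 white matter points (light colours) lie above the 4 motor neuron points (dark colours), and Cd68 shows the widest step between WT and SMA motor neurons.

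Among the surface receptors, Cx3cr1 was at 0.810 and 0.740 RPKM in WT motor neurons, 1.74 and 2.15 in SMA motor neurons, 13.2 and 13.1 in WT white matter and 19.0 and 16.1 in SMA white matter. P2ry12 was at 2.53 and 2.39 RPKM in WT motor neurons, 2.52 and 1.54 in SMA motor neurons, 16.9 and 33.3 in WT white matter and 25.9 and 31 in SMA white matter. The Cx3cr1 libraries formed 4 separate steps, whereas P2ry12 libraries of the 2 genotypes overlapped in both regions. Csf1r was at 4.0 and 2.98 RPKM in WT motor neurons, 9.13 and 3.80 in SMA motor neurons, 25.2 and 27.7 in WT white matter and 34 and 41.9 in SMA white matter. The high SMA motor neuron value of Csf1r came from replicate 1 alone. Part of the Csf1r exons (15.1% of their bases in the GENCODE vM21 annotation) overlaps Hmgxb3 on the opposite strand. Hmgxb3 itself was at 3.96 to 7.91 RPKM in the 8 libraries, and whether strand was used in counting was not given in the sources used here.

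The receptor gene Trem2 was at 1.16 and 2.82 RPKM in WT motor neurons, 0.596 and 2.15 in SMA motor neurons, 9.54 and 11.3 in WT white matter and 17.5 and 17.4 in SMA white matter. Its adaptor gene Tyrobp was at 6.77 and 7.34 RPKM in WT motor neurons, 17.5 and 14.2 in SMA motor neurons, 62.6 and 48.0 in WT white matter and 81.3 and 111 in SMA white matter. Both genes had higher values in SMA than in WT white matter, without overlap. In motor neuron captures only Tyrobp did so, and the Trem2 libraries of WT and SMA overlapped. Tmem119 was at 1.32 and 0.559 RPKM in WT motor neurons, 3.02 and 1.90 in SMA motor neurons, 14.8 and 11.7 in WT white matter and 13.7 and 14.5 in SMA white matter. For this marker the genotypes separated in motor neuron captures and overlapped in white matter.

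Of the lysosomal genes, Cd68 was at 0.229 and 0.602 RPKM in WT motor neurons, 3.11 and 4.14 in SMA motor neurons, 4.78 and 7.81 in WT white matter and 13.2 and 14.2 in SMA white matter. The protease gene Ctss was at 4.52 and 6.93 RPKM in WT motor neurons, 10.6 and 11.3 in SMA motor neurons, 39.5 and 58.9 in WT white matter and 40.4 and 81.0 in SMA white matter. Cd68 libraries of SMA lay above those of WT in both regions, and Ctss libraries did so in motor neuron captures. Aif1 was at 0.163 and 1.08 RPKM in WT motor neurons, 2.94 and 1.22 in SMA motor neurons, 11.3 and 7.42 in WT white matter and 12.7 and 15.6 in SMA white matter. The Aif1 libraries of the genotypes did not overlap in either region, but replicates of motor neuron captures differed by more than the gap between the nearest WT and SMA libraries.

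By mean level the order began with Tyrobp, Ctss and Csf1r in all 4 groups. Tyrobp and Ctss libraries overlapped in WT motor neurons and in WT white matter. Ctss and Csf1r overlapped in SMA white matter. P2ry12 took rank 4 in 3 groups. In WT white matter its libraries spanned those of Csf1r, and in WT motor neurons they lay inside the range of Trem2, the gene at rank 5. Cd68 was last of the 9 in WT motor neurons and in both white matter groups, and at rank 4 in SMA motor neurons. Its libraries overlapped those of Aif1 in WT motor neurons and in WT white matter, and those of Aif1 and Tmem119 in SMA white matter. In SMA motor neurons Cd68 overlapped Csf1r, its neighbour above, and lay above Tmem119, its neighbour below.

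The difference between regions passed the test for each gene (limma on log2(RPKM + 1), Benjamini-Hochberg adjustment over 13948 genes, threshold 0.05). Genes with low levels appear to change less on this scale than they do in RPKM. In WT, 9 of 9 genes were lower in motor neuron captures, against a background of 9.85% of tested genes called lower. Cx3cr1 had the largest difference, a log2 value of -3.00 ± 0.31 (SE; limma adjusted p = 1.49e-04), and Trem2 the smallest, -1.99 ± 0.42 (limma adjusted p = 0.00681). The median was -2.79, where the median of all tested genes was 0.08. In SMA, 9 of 9 were again lower, against a background of 17.2%. P2ry12 had the largest SMA difference, -3.29 ± 0.37 (limma adjusted p = 3.35e-04), and Cd68 the smallest, -1.68 ± 0.36 (limma adjusted p = 0.00703). The median in SMA was -2.47, against -0.24 over all genes. These calls rest on pairs of libraries. In WT, Trem2 missed the threshold when motor neuron replicate 1 was left out (limma adjusted p = 0.0734) and when white matter replicate 2 was (0.0600). In SMA, Cd68 missed it when white matter replicate 2 was left out (limma adjusted p = 0.0517).

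**Figure D2:**
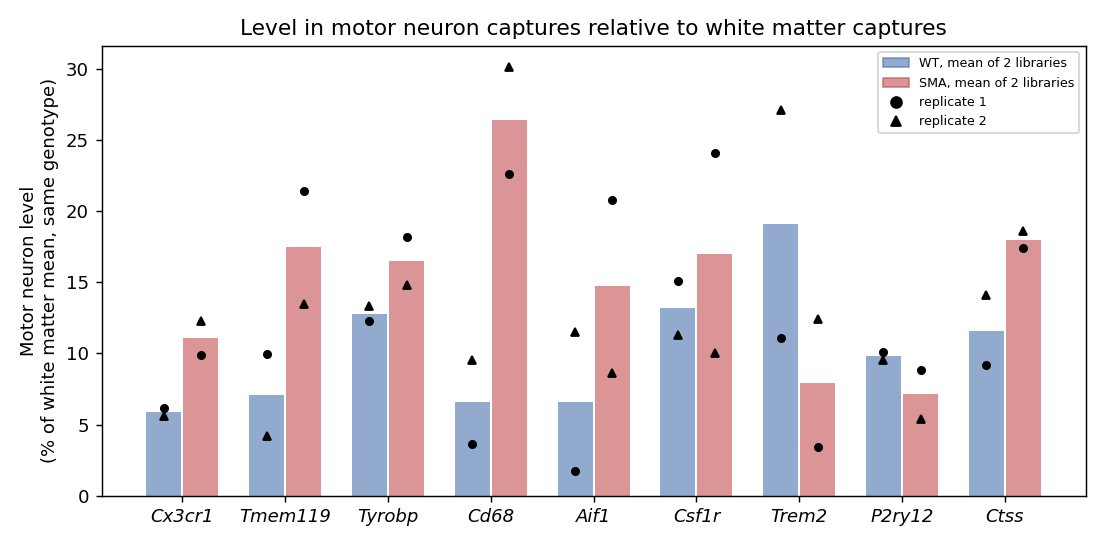
Mean level in motor neuron captures as a percentage of the mean level in white matter captures of the same genotype (bars, 2 libraries each), with each motor neuron library as a black point. Cd68 stood at 6.60% in WT and 26.4% in SMA, while Trem2 and P2ry12 had lower percentages in SMA than in WT.

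Expressed as a percentage of the white matter mean, the WT motor neuron level was between 5.88% (Cx3cr1) and 19.1% (Trem2). In SMA the percentage was between 7.14% (P2ry12) and 26.4% (Cd68). It was higher in SMA for 7 genes and lower for the other 2, Trem2 (19.1% in WT and 7.89% in SMA) and P2ry12 (9.78% and 7.14%). Tmem119 had 7.09% in WT and 17.5% in SMA, and Cx3cr1 5.88% and 11.1%. The plot of these percentages shows that single libraries varied widely, from 11.1% to 27.1% for Trem2 in WT and from 10% to 24.1% for Csf1r in SMA.

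The comparison of SMA with WT motor neurons addresses the effect of the SMA genotype in these captures. Mean levels of 7 of the 9 microglia genes were higher in SMA, by 1.85 times (Csf1r) to 8.73 times (Cd68). Tyrobp had 2.25 times the WT mean, Cx3cr1 2.51 times, Tmem119 2.62 times, Aif1 3.36 times and Ctss 1.91 times. Trem2 had 0.690 times the WT mean and P2ry12 0.826 times. Single libraries moved several of these ratios: Cd68 was at 15.8 times without WT replicate 2, Tmem119 at 4.40 times without WT replicate 1, and Csf1r at 1.09 times without SMA replicate 1. Aif1 was at 12.7 times without WT replicate 2, 1.93 times without WT replicate 1 and 1.97 times without SMA replicate 1. Trem2 was at 1.18 times without WT replicate 2, 1.08 times without SMA replicate 1 and 0.299 times without SMA replicate 2, and P2ry12 at 1.02 times without SMA replicate 2. Summed over the 9 genes, the level was 21.5 to 25.4 RPKM in WT and 42.4 to 51.1 RPKM in SMA motor neurons.

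No single gene passed the test in this comparison: 0 of the 9, as for 0 of 13948 tested genes (limma with Benjamini-Hochberg adjustment, a background of 0.0%). At unadjusted p under 0.05, 5 of the 9 were higher, against 2.01% of all genes called higher that way and 4.37% in either direction. They were Cd68, with a log2 difference of 1.71 ± 0.36 (limma adjusted p = 0.556), Tyrobp, with 1.06 ± 0.27 (limma adjusted p = 0.669), Tmem119, with 0.84 ± 0.35, Cx3cr1, with 0.73 ± 0.31, and Ctss, with 0.85 ± 0.37 (limma adjusted p = 1.0 for each of the last 3). Aif1 (0.93 ± 0.43) and Csf1r (0.64 ± 0.37) were also higher in mean but had an unadjusted p above 0.05. Trem2 (-0.36 ± 0.42) and P2ry12 (-0.21 ± 0.37) lay within their errors of 0. The median over the 9 was 0.84, where the median over all genes was -0.05.

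Both SMA libraries lay above both WT libraries for 6 of the 9 genes (Cx3cr1, Tmem119, Tyrobp, Cd68, Aif1 and Ctss), a pattern seen in 12.7% of tested genes. The opposite pattern was seen for 0 of the 9 and for 15.5% of tested genes. SMA lay above WT without overlap for 7 genes, with Csf1r added, under each of 3 other scalings. These were median-of-ratios (13.7% of tested genes), quantile normalization (15.9%) and equal RPKM sums without the ribosomal RNA gene Rn45s (12.7%).

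**Figure D3:**
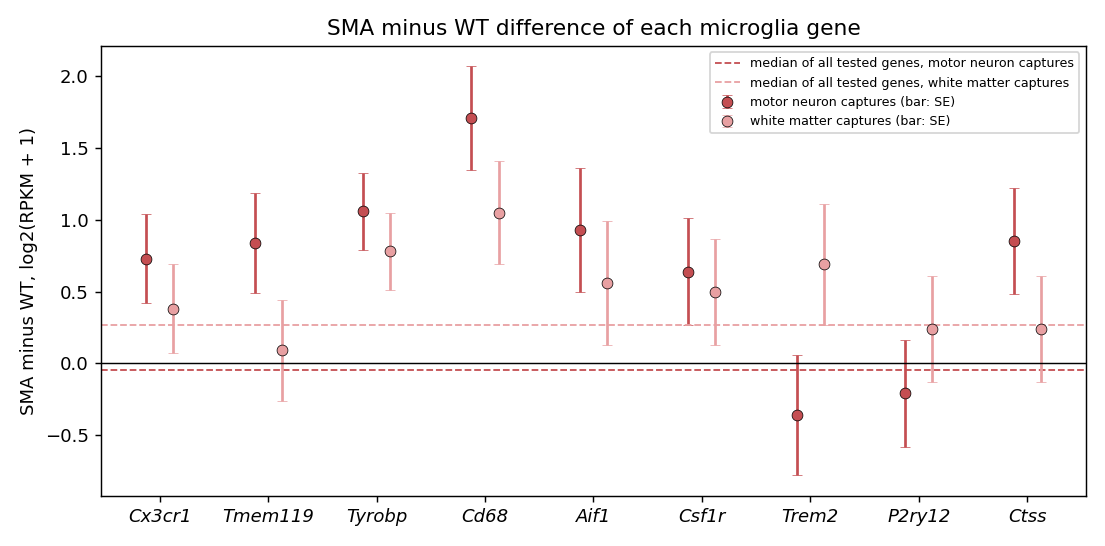
SMA minus WT difference of each microglia gene on the log2(RPKM + 1) scale, in motor neuron captures (dark) and white matter captures (light), with bars of 1 SE and dashed lines at the median of all tested genes. In motor neuron captures Cd68 is highest at 1.71 and Trem2 lowest at -0.36, and in white matter all 9 points lie above 0.

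The shares of single genes in the summed level varied between libraries. Cd68 gave 1.06% and 2.36% of the summed RPKM of the 9 genes in WT motor neurons, 6.08% and 9.76% in SMA motor neurons, 2.42% and 3.56% in WT white matter and 5.14% and 4.15% in SMA white matter. P2ry12 gave 11.8% and 9.39% in WT motor neurons, 4.93% and 3.63% in SMA motor neurons, 8.55% and 15.2% in WT white matter and 10% and 9.04% in SMA white matter. Thus the Cd68 share was higher in SMA libraries of both regions, and the P2ry12 share was lower in SMA motor neuron libraries than in any other library. The ratio of Cd68 to P2ry12, a pair chosen after their values were seen and so not tested, was 0.0905 and 0.252 in WT motor neurons and 1.23 and 2.69 in SMA motor neurons. In white matter it was 0.283 and 0.234 in WT and 0.511 and 0.460 in SMA. Tyrobp kept a share of 28.9% to 34.3% in all libraries but WT white matter replicate 2, where it was 21.9%.

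**Figure D4:**
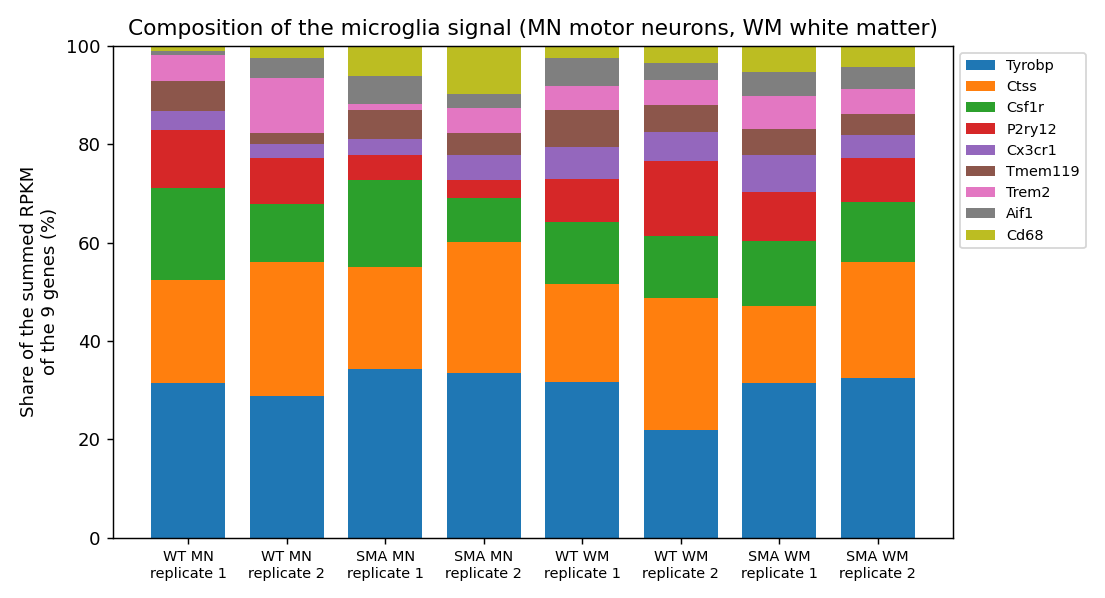
Share of each microglia gene in the summed RPKM of the 9 genes, in percent, for each of the 8 libraries (MN motor neurons, WM white matter). The Cd68 segment at the top is widest in the SMA motor neuron libraries, at 6.08% and 9.76%, where the P2ry12 segment is narrowest, at 4.93% and 3.63%.

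In white matter the mean of every microglia gene was higher in SMA, by 1.06 times (Tmem119) to 2.18 times (Cd68). Tyrobp had 1.74 times the WT mean, Trem2 1.67 times, Aif1 1.51 times, Csf1r 1.44 times, Cx3cr1 1.33 times, Ctss 1.23 times and P2ry12 1.13 times. The summed level was 198 to 219 RPKM in WT and 258 to 343 RPKM in SMA white matter. Without 1 library the ratio fell below 1 for Ctss (0.822 without SMA replicate 2), P2ry12 (0.853 without WT replicate 1) and Tmem119 (0.952 without WT replicate 2). Marker sums of endothelium (17.4 to 17.7 RPKM in WT and 28.9 to 40.5 RPKM in SMA), fibroblasts or meninges (25.3 to 39.7 and 56.8 to 105 RPKM) and granulocytes (0.0848 to 13.7 and 15.3 to 24 RPKM) were also higher in SMA white matter without overlap, and their part in the microglia values was not tested. Further, the scale itself differed between the groups: the median of all tested genes was 0.27 higher in SMA on the log2 scale. With median-of-ratios scaling, which sets that median to 0, Tmem119, P2ry12 and Ctss changed sign (-0.22, -0.08 and -0.08). They did so as well after quantile normalization (-0.24, -0.11 and -0.12).

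Again 0 of the 9 genes passed limma in white matter, as for 0 of 13948 genes (a background of 0.0%). At unadjusted p under 0.05, 2 were higher, Cd68 (1.05 ± 0.36; limma adjusted p = 0.727) and Tyrobp (0.78 ± 0.27; limma adjusted p = 0.727), against 6.05% of all genes called higher that way and 6.31% in either direction. Relative to the median of all genes, Cd68 stood 0.77 higher and Tyrobp 0.51 higher, whereas Tmem119 was at -0.18, P2ry12 at -0.03 and Ctss at -0.03. The SMA libraries lay above the WT libraries without overlap for 6 of the 9 genes (Cx3cr1, Tyrobp, Cd68, Aif1, Csf1r and Trem2), and below them for 0. Over all tested genes those shares were 39.7% and 4.17%. With median-of-ratios scaling 2 genes did so, Cd68 and Trem2, against 15.1% of all genes. After quantile normalization the 3 were Cx3cr1, Cd68 and Trem2 (14.8%), and with equal sums without Rn45s they were Tyrobp, Cd68 and Trem2 (14.1%). Cd68 and Trem2 were the genes without overlap on each of the 4 scales used. Among only 9 genes, counts of 2 or 3 are near the shares of all genes, so they are not read as a result. Trem2 did not pass either (0.69 ± 0.42; limma adjusted p = 0.756).

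The SMA difference was not shown to differ between the regions for any of the 9 genes. In the interaction term, the difference in motor neurons minus that in white matter, 0 of 9 passed (limma adjusted p = 0.883 to 0.961; background 0.0%) and 0 of 9 had an unadjusted p under 0.05, as 4.97% of all genes had. Trem2 had the lowest value, -1.05 ± 0.60, and Tmem119 the highest, 0.75 ± 0.50. The median of the 9 was 0.35, against -0.33 over all genes. Averaged over both regions, 0 of 9 passed (background 0.0%), and 4 were higher at unadjusted p under 0.05, against 5.04% of all genes called higher that way. These 4 were Cd68 (1.38 ± 0.25; limma adjusted p = 0.544), Tyrobp (0.92 ± 0.19; 0.612), Aif1 (0.75 ± 0.30; 0.792) and Cx3cr1 (0.55 ± 0.22; 0.792).

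The ligands of the receptors were also measured. Cx3cl1, which encodes fractalkine, was at 89.4 and 69.5 RPKM in WT motor neurons, 73.8 and 95.9 in SMA motor neurons, 8.80 and 2.88 in WT white matter and 11.9 and 12 in SMA white matter. It was higher in motor neuron captures by 3.69 ± 0.40 on the log2 scale in WT (limma adjusted p = 2.07e-04; 18.6% of all genes were called higher) and by 2.72 ± 0.40 in SMA (limma adjusted p = 0.00130; 13.6% of all genes). Ligand and receptor thus lay on opposite sides of the region comparison. Csf1 was at 5.15 and 5.40 RPKM in WT motor neurons, 18.7 and 6.72 in SMA motor neurons, 7.59 and 12.8 in WT white matter and 19.4 and 14.3 in SMA white matter. Csf1 libraries of SMA lay above those of WT in both regions, with log2 differences of 0.97 ± 0.45 and 0.70 ± 0.45 that did not pass (limma adjusted p = 1.0 and 0.760). SMA lay above WT without overlap for 12.7% of all tested genes in motor neurons and for 39.7% in white matter. In white matter Il34 and Cx3cl1 did so too. The high motor neuron value of Csf1 was that of SMA replicate 1, the library with the high Csf1r value. Il34 was at 0.493 to 3.97 RPKM, with its highest value in the same library.

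Of 10 signalling partners of Tyrobp and Trem2, 9 passed the filter. Lower in motor neuron captures were Apoe, a lipoprotein that binds TREM2, Itgam, an integrin subunit, Plcg2, a phospholipase, and Siglech, a lectin that pairs with DAP12, in both genotypes, and the lipid phosphatase gene Inpp5d in SMA. These were 4 of the 9 in WT and 5 in SMA, against 9.85% and 17.2% of all genes called lower. None of the 9 was called higher there, against 18.6% and 13.6% of all genes. Itgam and Plcg2 reached 1 RPKM in only 1 motor neuron library each and would not have passed the filter without white matter. That favours a lower call in advance. Hcst, Itgb2, Pik3cg and Vav1 did not pass between regions in either genotype. Between SMA and WT motor neurons 0 of the 9 passed limma and their median was -0.17. At unadjusted p under 0.05 there were 2, Apoe higher and Inpp5d lower, against 4.37% of all genes in either direction. Apoe was at 240 and 201 RPKM in WT and 310 and 379 RPKM in SMA motor neurons. Inpp5d went the other way, at 1.71 and 1.11 RPKM in WT and 0.156 and 0.381 RPKM in SMA motor neurons. Itgam was at 1.86 and 0.524 RPKM in WT and 0.238 and 0.215 RPKM in SMA motor neurons. In motor neuron captures SMA lay above WT without overlap for 3 of the 9, Apoe, Itgb2 and Pik3cg, and below it for 3, Itgam, Inpp5d and Vav1, against 12.7% and 15.5% of all genes. In white matter Inpp5d was higher in SMA without overlap, at 6.76 and 5.75 RPKM against 3.18 and 3.37 RPKM in WT. The adaptor gene Hcst was listed at 0 in all 4 motor neuron libraries and was at 0.117 to 2.40 RPKM in white matter.

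A wider list of 38 other microglia genes, of which 37 passed the filter, was mostly lower in motor neuron captures, with a genotype difference there nearer 0. In WT 26 were lower and 3 higher in motor neuron captures, against 9.85% and 18.6% of all genes. In SMA 27 were lower and 1 higher, against 17.2% and 13.6%. Some of these genes, Fcgr3 and Ikzf1 included, were under 1 RPKM in every motor neuron library and passed the filter through white matter alone. For them a lower value in motor neuron captures was largely fixed in advance, so these counts are descriptive. Laptm5, a lysosomal membrane protein of blood cells, was at 7.03 and 10.9 RPKM in WT motor neurons and 37.9 and 49.1 in WT white matter, and Sall1, a transcription factor of microglial identity that is also expressed in neural precursors, at 3.14 and 4.34 against 31.1 and 25.7. Spi1, which encodes PU.1, was at 1.6 and 0.368 RPKM in WT motor neurons and 9.23 and 5.93 RPKM in WT white matter. Those higher in motor neuron captures included Coro1a, an actin regulator, in both genotypes, and the actin bundler Lcp1 in WT. Coro1a was at 43.5 to 57.1 RPKM in motor neuron captures and 14.9 to 22.5 RPKM in white matter.

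Between SMA and WT motor neurons, 0 of these 37 passed and none was higher at unadjusted p under 0.05. Their median was 0.09, against 0.84 for the 9 genes and -0.05 for all genes. Many of the 37 had means under 1 RPKM in these captures, as some of the 9 had in WT. At such levels the log2(RPKM + 1) scale shrinks differences. SMA libraries lay above WT libraries for 6 of the 37 and below them for 3, where 12.7% and 15.5% of all tested genes did so. Laptm5 was at 9.92 and 14.3 RPKM in SMA motor neurons and Sall1 at 4.92 and 7.20. Ly86, a partner of a Toll-like receptor homologue, was at 3.88 and 5.64 RPKM in WT and 4.40 and 3.68 in SMA motor neurons. Fcer1g, an adaptor of Fc receptors, was at 2.39 and 4.22 RPKM in WT and 2.92 and 10.8 in SMA motor neurons. Spi1 was at 0.597 and 0.801 RPKM in SMA motor neurons, between the WT values.

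**Figure D5:**
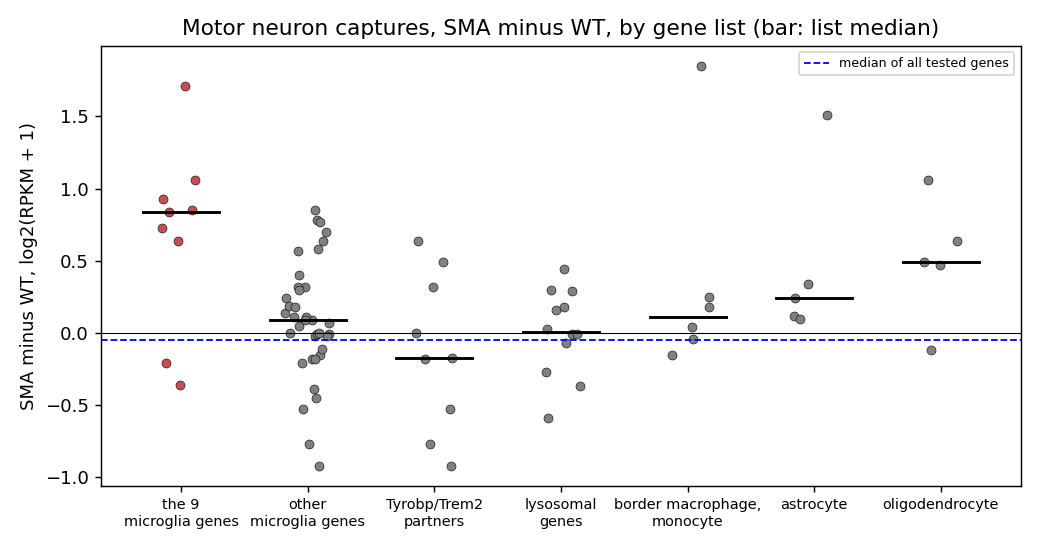
SMA minus WT difference in motor neuron captures on the log2(RPKM + 1) scale for the tested genes of 7 lists, some of which share genes, with a bar at each list's median and a dashed line at the median of all tested genes. The 9 microglia genes have a median of 0.84, while the other microglia genes spread on both sides of 0 around a median of 0.09.

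Lysosomal genes as a group did not follow Cd68 and Ctss in motor neuron captures. Of 12 genes for cathepsins, a cathepsin inhibitor and other lysosomal proteins, 6 had a higher and 6 a lower value in SMA motor neurons, with a median of 0.01. In white matter all 12 had higher values in SMA, with a median of 0.44 against 0.27 over all genes, and 0 passed limma (4 at unadjusted p under 0.05, against 6.05% of all genes called higher that way). Ctsd, the cathepsin of highest level, was at 142 and 154 RPKM in WT and 151 and 180 RPKM in SMA motor neurons. Neurons express many genes of this list. Between regions 2 of the 12 were lower in motor neuron captures in WT, Ctsh among them, and 5 in SMA, with Ctsh, Ctsz, Hexa and Lamp1 among them, against 9.85% and 17.2% of all genes called lower. Ctsh reached 1 RPKM in only 1 motor neuron library and would not have passed the filter without white matter.

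Several genes of growth-stage or phagocytic microglia were at or near 0. Gpnmb was listed at 0 in all 8 libraries, Clec7a was listed at 0 in all 4 motor neuron libraries, and Itgax was at 0.0791 RPKM or less. Of the 17 genes of this list 11 passed the filter. Apoe, Axl, Cd9 and Cd63 were lower in motor neuron captures in both genotypes and Lpl in SMA, whereas Igf1, a growth factor, was higher there in both. In WT 4 of the 11 were thus lower and 1 higher, against 9.85% and 18.6% of all genes. In SMA 5 were lower and 1 higher, against 17.2% and 13.6%. Lpl was under 1 RPKM in every motor neuron library and passed the filter through white matter alone. Ccl3, a chemokine, was listed at 0 in 3 of the 4 motor neuron libraries and reached 5.46 RPKM in SMA motor neuron replicate 2. In white matter it was at 0.889 and 0.969 RPKM in WT and 5.48 and 8.49 RPKM in SMA. That white matter difference did not pass (2.02 ± 0.70; limma adjusted p = 0.727). Of 6 cytokine genes 0 passed the filter. Il1b was listed at 0 in all 8 libraries and Tnf and Cxcl10 in all 4 motor neuron libraries. The summed level of the 6 was at most 1.72 RPKM in any library.

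Markers of other cells were read beside the microglia genes, and their part in the SMA differences was not tested. The 10 markers of border macrophages and monocytes summed to 0.830 to 1.17 RPKM in WT motor neurons, 4.71 to 4.94 in SMA motor neurons, 17.8 to 23.3 in WT white matter and 18.4 to 29.4 in SMA white matter. In SMA motor neurons most of that sum was Ly6c2, at 4.08 and 4.17 RPKM against 0.521 and 0.322 RPKM in WT. The Ly6c2 difference did not pass (1.85 ± 0.38; limma adjusted p = 0.556). Ms4a7, Ccr2 and Plac8 were listed at 0 in all 4 motor neuron libraries, and Mrc1, a defining marker of border macrophages, was at 0.0702 and 0.767 RPKM in WT and 0.283 and 0.203 RPKM in SMA motor neurons. The 5 granulocyte markers were listed at 0 in both SMA motor neuron libraries and summed to at most 1.13 RPKM in WT motor neurons. In white matter, as given above, their sum was higher in SMA than in WT. The T cell genes Cd3e and Cd3g were listed at 0 in all 8 libraries. The 4 lymphocyte markers summed to at most 0.407 RPKM in any library.

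Some glial markers also had higher values in SMA motor neuron captures. The 5 oligodendrocyte markers summed to 39.3 to 61.3 RPKM in WT and 75 to 107 RPKM in SMA motor neurons, with no overlap for 3 of them, Mbp and Cnp included, against 12.7% of all tested genes. The 5 astrocyte markers summed to 77.5 to 83.5 and 82.6 to 137 RPKM. Gfap was at 4.80 and 9.04 RPKM in WT and 23.5 and 18.2 RPKM in SMA motor neurons, and the difference did not pass (1.51 ± 0.32; limma adjusted p = 0.556). The 4 fibroblast or meninges markers summed to 0.792 to 0.865 and 1.85 to 10.4 RPKM. The 5 endothelial markers summed to 13.9 to 17.3 RPKM in WT and 13.1 to 25.5 RPKM in SMA motor neurons. The red blood cell markers summed to 99.2 to 203 and 120 to 140 RPKM. The 5 motor neuron markers summed to 333 to 342 RPKM in WT and 269 to 291 RPKM in SMA motor neurons, and to 9.51 RPKM or less in white matter. None of these lists had a member past the threshold between SMA and WT motor neurons.

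Within each region the 9 genes did not all move together. After centring each gene within its region, the correlation of a gene with the mean of the other 8 over the 8 libraries was highest for Tyrobp (Pearson r = 0.929) and Cd68 (0.910). It was 0.811 for Cx3cr1, 0.762 for Aif1, 0.745 for Ctss, 0.703 for Csf1r and 0.576 for Tmem119. For P2ry12 it was 0.041 and for Trem2 -0.047. These values describe 8 libraries that share the group differences given above.

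By the same measure without centring, 455 genes had r of at least 0.95 with the mean of the 9, since the region difference dominates the 8 libraries. The 10 highest were Tm7sf3 (0.995), Cecr2, Mfsd1, S100a6, Psph, Snx18, Kcne1l, Hey1, Gpr137b-ps and Ccnd1 (0.990). Tm7sf3 was at 5.32 and 5.23 RPKM in WT motor neurons, 8.12 and 7.06 in SMA motor neurons, 18.4 and 18 in WT white matter and 25.1 and 28.3 in SMA white matter, the same order of groups as Tyrobp. After centring within regions 16 genes reached 0.95. The first 10 were Gpx3 (0.985), Hmox1 (0.970), E230016M11Rik, Slc13a5, Sstr1, Exosc4, Ak1, Mxd1, Mfsd1 and Cdkn1a (0.958). Hmox1, which encodes the heme-degrading enzyme heme oxygenase 1, was at 1.68 and 2.68 RPKM in WT motor neurons, 7.12 and 8.31 in SMA motor neurons, 4.36 and 4.31 in WT white matter and 7.51 and 11.8 in SMA white matter. Gpx3, a secreted glutathione peroxidase, was at 21.0 and 25.4, 43.6 and 43.1, 14.6 and 15.9, and 24.5 and 27.5 RPKM in the same groups. Unlike the microglia genes, Gpx3 had its higher levels in motor neuron captures.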

How the data were processed

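RNA was measured in 8 libraries, 1 table each. Per the labels' protocols, RNA of laser captures was purified (RNeasy Plus Micro), turned into cDNA with the NuGEN Ovation system, sheared, size-selected and built into libraries. The deposited values are RPKM per gene symbol, made by the authors. TopHat, bedtools, DESeq and mouse genome mm9 are named in the submitters' processing notes. Their versions, the annotation and the use of strand were not given in the sources used here. Groups follow the labels. No animals are named, so each p-value reflects only how far libraries of a group differ. The 2 libraries of each group differed in Xist and Ddx3y, so they were not technical repeats of 1 sample. Sex, animal and technical differences cannot be told apart in that spread.

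Differences were tested on log2(RPKM + 1), for 13948 genes with at least 1 RPKM in at least 2 libraries, using limma 3.58.1 in R 4.3.3. The fit used 4 group means, all 8 libraries sharing 1 estimate of the spread, eBayes with trend, two-sided tests in 6 comparisons and Benjamini-Hochberg adjustment over all genes. In a simulation of 13948 genes, 200 were given a known difference. A log2 difference of 1 was recovered for 1% of these between SMA and WT motor neurons. The share was 0% between SMA and WT white matter and 0% between the WT regions. With a log2 difference of 2 the shares were 80.5%, 82% and 67% in the same order. Between the WT regions 3967 genes were called in the data, many more than the 200 changed here. The adjustment was therefore stricter in the simulation, and its shares do not carry over to the region comparisons. In the data Apoe (-1.26 ± 0.19; limma adjusted p = 0.00129) and Cd63 (-1.27 ± 0.31; limma adjusted p = 0.0134) passed between the WT regions. A miss between SMA and WT therefore does not exclude a log2 difference of about 1. Whole reads were recovered from the RPKM steps for 17430 of 17431 genes (tolerance 0.02 of a read). They gave depths and a limma-voom alternative, and intervals on such reads would cover counting error only. In all, 19 alternatives were run. Other steps used Python 3.11.15, pandas 2.3.3, numpy 2.4.6 and, for plots, matplotlib 3.10.9.

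The 9 genes and 15 further lists were chosen with earlier results of these data known. Named besides the 9 are ligands, partners, list members past the threshold or among the 4 highest, and the 10 genes most correlated with the mean of the 9. Other list genes (Inpp5d, Itgam, Igf1, Ly6c2, Ccl3, Mrc1 and genes listed at 0) were named after their values were seen. Spi1 stands under an older symbol in the tables, and Hbb-bt was not matched. Promoters came from RefSeq (GRCm38.p6), another build than the tables' mm9, so no positions were joined. Values of some list genes are not reported here.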

Additional observations from a re-analysis of the deposited data

Results flagged for a closer look

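Syk, the kinase that TYROBP recruits, went opposite ways in the regions, a difference that was not tested because the gene stayed under the filter on low values. It was at 0.271 and 0.132 RPKM in WT and 0.0912 and 0.0119 RPKM in SMA motor neurons, a ratio of means of 0.256. In white matter it was at 0.627 and 0.308 RPKM in WT and 1.14 and 0.808 RPKM in SMA, a ratio of 2.09.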

How the results depend on the processing

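The number of microglia genes called lower in motor neuron captures was 9 in both genotypes under all alternatives except leaving out a library, when it was 8 to 9, and the number called between SMA and WT was 0 in every alternative. With the replicate number as a block it was 9, 9, 0, 0, 0 and 0 in the 6 comparisons, and the block changed no call of a microglia gene. Same-numbered libraries did not deviate together (correlations -0.343 to 0.0805). The number goes with Xist and Ddx3y in every group. Whether it marks shared animals was not given in the sources used here, so the block is an alternative only. Over all genes, the count of calls ranged from 2015 to 5333 between the WT regions (3967 as reported) and from 2272 to 5539 between the SMA regions (4295). It ranged from 0 to 123 between SMA and WT motor neurons, with 123 without SMA motor neuron replicate 1, and reached 1 in white matter, 8 over both regions and 17 for the interaction. The count of the 9 genes with SMA above WT white matter without overlap fell from 6 to 2 (median-of-ratios), 3 (quantile) and 3 (equal sums). The share of all tested genes fell from 39.7% to 15.1%, 14.8% and 14.1%.

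Several small differences changed sign, all far from the threshold. In white matter, Tmem119 was at -0.22, -0.24, -0.25 and -0.27 with median-of-ratios, quantile, equal-sum scaling and limma-voom, P2ry12 at -0.08, -0.11, -0.11 and -0.13, and Ctss at -0.08, -0.12, -0.11 and -0.13. Leaving out single libraries gave ranges of -0.07 to 0.25 for Tmem119, -0.23 to 0.71 for P2ry12 and -0.25 to 0.74 for Ctss in white matter. In motor neurons the ranges were -0.85 to 0.13 for Trem2 and -0.44 to 0.03 for P2ry12. For the interaction they were -0.05 to 0.78 for Aif1, -0.40 to 0.68 for Csf1r and -0.92 to 0.02 for P2ry12. The cause of these changes was not tested. Depth limits the lowest motor neuron values, where Aif1 rested on 13 and Cd68 on 21 reads in 1 library.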
